A study of Mus musculus with 2 samples.

Results

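Accessible chromatin was described at 10 genes of the LIM family in mouse cardiac progenitor cells (CPCs). The genes were 6 LIM-homeodomain genes (Isl1, Isl2, Lhx2, Lhx5, Lhx9 and Lmx1b) and 4 genes for LIM cofactors (Ldb1, Ldb2, Lmo1 and Lmo4). A peak belonged to one of them when the deposited annotation gave that gene's symbol as the nearest transcription start site (TSS). This rule gave 32 of the 26232 distinct peaks. Each of the 10 genes had at least 1, beside 62.5% of protein coding genes. The genes were chosen with earlier results of these data known. Comparisons of their peak numbers with those of other genes may therefore follow from the choice. The measurement was ATAC-Seq, in which the transposase Tn5 inserts sequencing adapters into DNA that is not covered by nucleosomes, so that open regions collect reads and are called as peaks. The cells came from an E14 mouse embryonic stem cell line carrying an EmGFP reporter under Nkx2-5 regulation, Tg(Nkx2-5-EmGFP), and the labels also name the strain C57BL/6. Stem cells kept with LIF and BMP4 were aggregated, exposed to Activin A, VEGF and BMP4, then cultured with ascorbic acid, VEGF, bFGF and FGF10, and collected at day 5. Both samples, replicates 1 and 2, belonged to this 1 group, and their labels name no knockdown. The design text also names progenitors with Isl1 knockdown, which were not analysed here. All cells carried the reporter. The ATAC-Seq methods of the study do not state whether the cells were sorted for its expression.

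The file held 1 list of regions for both replicates together. It gave a position, a distance to the TSS and a gene, with no peak height and no value for either replicate, so the depth was unknown and no error between replicates could be computed. All values below are therefore descriptions of 1 list. Its widths and midpoints may be those of 1 replicate, as set out under the processing of the data. Distances are those of the file, and the TSS they imply was in GENCODE within 1 bp for 20 of the 32 peaks. The 95% Wilson intervals on shares cover counting error over peaks only. A region open in few cells and one weakly open in many cannot be told apart in bulk material. Defining markers were read by the presence of a peak. Of 6 cardiac progenitor genes, 5 had a peak and 4 had one within 1 kb of the TSS, while Hand2 had none. All 4 motor neuron genes looked up had a peak as well, as did 3 of 4 genes of blood and endothelium and 2 of 3 liver genes, although no liver gene had one within 1 kb. Having a peak thus did not separate these cell types.

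LIM-homeodomain proteins bind DNA through a homeodomain and use a pair of LIM domains to hold partner proteins. Ldb1 and Ldb2 are adaptors that dimerise and bind the LIM domains, which joins LIM proteins bound at different places, while Lmo proteins consist of LIM domains without a homeodomain and compete for, or share, the same adaptors. Isl1 marks progenitors of the second heart field and is also needed in motor neurons, pancreas and retina, and the other LIM-homeodomain genes are best known from the nervous system, limb, gonad and kidney.

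The sequences below show the regions to which the results return. They are windows of 100 bases inside the peaks, written on the strand of the gene from the reference of build mm9 (NCBIM37), and none overlaps an annotated exon. The promoter windows of Isl1 and Isl2 are shown for their paired CCAAT boxes, given in capitals.
Isl1 promoter (chr13:117099897-117099996, minus strand): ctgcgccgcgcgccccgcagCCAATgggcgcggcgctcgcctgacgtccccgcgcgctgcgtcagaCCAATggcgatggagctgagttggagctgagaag
Isl2 promoter (chr9:55388714-55388813, plus strand): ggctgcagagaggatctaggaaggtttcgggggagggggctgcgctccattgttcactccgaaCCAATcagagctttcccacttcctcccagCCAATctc

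Distal windows of Isl1, except those of the peaks at -186207 and -133758 bp, are shown because Isl1 had the most peaks. Capitals mark TAATTA and CTAATG (cores read by homeodomains), AGATAA and TGATAA (read by GATA factors) and CAGCTG and CAGGTG (E-boxes, read by basic helix-loop-helix factors), on either strand. In the peak at 567488 bp they mark repeats of TAGGG. Of the peaks not printed, that at -186207 bp held CAGCTG in its centre. That at -133758 bp held no homeodomain core, GATA motif or E-box there.
Isl1 at -214307 bp (chr13:117314254-117314353, minus strand): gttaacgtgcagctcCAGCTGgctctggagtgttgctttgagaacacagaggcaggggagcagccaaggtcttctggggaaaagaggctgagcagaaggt
Isl1 at -199622 bp (chr13:117299469-117299568, minus strand): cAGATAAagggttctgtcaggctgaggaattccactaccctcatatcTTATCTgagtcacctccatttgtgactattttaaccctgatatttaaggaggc
Isl1 at 12260 bp (chr13:117087587-117087686, minus strand): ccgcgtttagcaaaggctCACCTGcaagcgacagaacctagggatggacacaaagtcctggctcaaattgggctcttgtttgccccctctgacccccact
Isl1 at 15647 bp (chr13:117084200-117084299, minus strand): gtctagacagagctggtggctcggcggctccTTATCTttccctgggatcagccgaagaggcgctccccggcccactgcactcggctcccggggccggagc
Isl1 at 567488 bp (chr13:116532360-116532459, minus strand): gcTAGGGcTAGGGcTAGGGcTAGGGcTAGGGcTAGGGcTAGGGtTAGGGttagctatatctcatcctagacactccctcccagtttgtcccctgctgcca

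Windows of other members are shown as examples of a homeodomain core (Ldb2, Lmo1 at -80443 bp, Lhx9), of a GATA site beside an E-box (Ldb2, Lmo1 at -55631 bp) and of several GATA sites (Isl2). The Lmx1b window is shown for its intronic pair of peaks and holds an E-box only. The same motifs are in capitals.
Ldb2 at 198150 bp (chr5:44992786-44992885, minus strand): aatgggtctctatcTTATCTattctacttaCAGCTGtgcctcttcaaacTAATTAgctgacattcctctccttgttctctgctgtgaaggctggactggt
Lmo1 at -55631 bp (chr7:116374253-116374352, minus strand): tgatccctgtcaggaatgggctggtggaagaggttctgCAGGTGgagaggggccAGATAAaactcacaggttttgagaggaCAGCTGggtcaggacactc
Lmo1 at -80443 bp (chr7:116399195-116399294, minus strand): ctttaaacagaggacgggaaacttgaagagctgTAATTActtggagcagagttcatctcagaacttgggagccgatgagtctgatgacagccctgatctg
Lhx9 at -879 bp (chr1:140744887-140744986, minus strand): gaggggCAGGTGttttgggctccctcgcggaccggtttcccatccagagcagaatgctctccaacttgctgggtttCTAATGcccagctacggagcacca
Isl2 at 38983 bp (chr9:55427800-55427899, plus strand): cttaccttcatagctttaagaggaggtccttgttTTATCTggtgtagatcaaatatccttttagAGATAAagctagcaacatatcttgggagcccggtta
Lmx1b at 45272 bp (chr2:33450711-33450810, minus strand): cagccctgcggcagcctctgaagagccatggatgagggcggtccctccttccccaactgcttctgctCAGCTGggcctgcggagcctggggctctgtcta

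The 10 genes had between 1 and 8 peaks each, with a mean of 3.2 and a median of 2.5. Over the 15351 genes of the list with a peak, the mean was 1.71, the median 1 and the highest number 14. Of 21900 protein coding genes of the RefSeq table, 62.5% had a peak. The gene with the most was Isl1 with 8, followed by Lhx2, Lmo1 and Lmo4 with 4 each, Isl2 with 3, Lhx9, Lmx1b, Ldb1 and Ldb2 with 2 each, and Lhx5 with 1. Isl1 alone had 5 or more peaks, 1 of 10 genes beside 3.54% of all genes with a peak. Without Isl1 the mean was 2.67. The LIM-homeodomain genes (mean 3.33) and the cofactor genes (mean 3) differed by less than their ranges, which were 1 to 8 and 2 to 4.

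**Figure D1:**
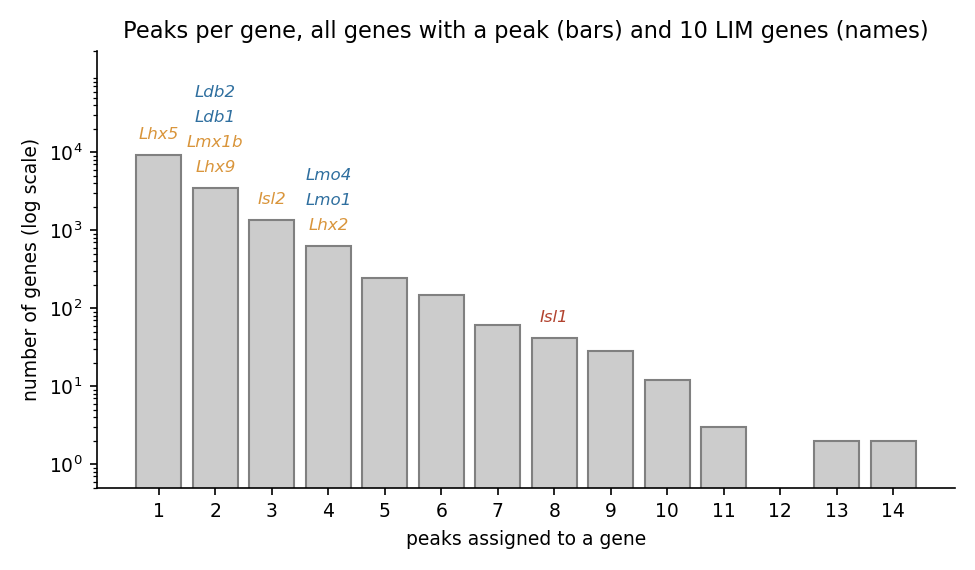
Bars give the number of genes (log scale) by the number of peaks assigned to them, over all 15351 genes with a peak, and names mark the 10 LIM genes. Isl1 stands at 8 peaks, where 42 genes stand, and the others stand between 1 and 4.

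Of the 10 genes, Isl1 had the widest spread of peaks, 781.8 kb between the outermost midpoints. A count of 8 or more was reached by 0.58% of the genes with a peak (89 genes). Its peaks lay at -214307, -199622, -186207, -133758, 3, 12260, 15647 and 567488 bp from the TSS, where negative values are upstream. Their widths in the same order were 664, 1154, 715, 814, 1261, 1052, 890 and 611 bp. The peaks thus fell into a promoter peak, 4 peaks far upstream, a close pair beyond the 3′ end of the gene, and 1 remote region.

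Isl1 (chr13:117088478-117099896, minus strand) has 1 annotated TSS. Its promoter peak (chr13:117099264-117100524) covered the TSS and the 5′ UTR. It was the widest of the gene, and 60.7% of its bases were G or C. Its CpG ratio, the number of CpG dinucleotides over that expected from the base content, was 0.79. All peaks within 1 kb had medians of 58.6% and 0.68. The 4 upstream peaks covered a span of 81.3 kb and were separated from the promoter peak by 132.7 kb without any peak. Their CpG ratios were 0.20, 0.15, 0.11 and 0.35 from the outermost inwards, beside a median of 0.21 and an upper quartile of 0.32 for all peaks between 100 and 250 kb, so that the innermost was high for its distance and the others were not. The peak at -199622 bp was the widest of these 4, and 85.2% of all peaks at that distance were narrower.

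The downstream pair at 12260 and 15647 bp (chr13:117087111-117088162 and chr13:117083805-117084694) lay past the end of the gene and was separated by 2416 bp. Their CpG ratios of 0.59 and 0.55 were above the upper quartile of 0.35 for peaks between 10 and 50 kb from a TSS. Their GC contents were 49.4% and 54.3%, and those of the upstream peaks ran from 44.1% to 49.4%, so that the lower of the pair was level with the highest upstream. The flanking peaks that belong to other genes, Itga1 and Parp8, were 1603 kb apart, and every peak between them was assigned to Isl1. In this interval the Isl1 peaks were sparse, at 0.50 per 100 kb and 7161 bp of summed width. Among the 10 genes only Ldb2 and Lhx5 had fewer peaks per 100 kb of the interval so defined, at 0.20 and 0.41.

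The peak at 567488 bp (chr13:116532104-116532714) was assigned to Isl1 in the file. In the GENCODE annotation of the same build a protein coding TSS of Gm6404 is closer, at 411564 bp. The region held 22 copies of TAGGG on either strand, letters that are part of the telomere repeat, and 18.3% of its 32-base words occurred more than once in the genome. The other 31 peaks had at most 9.03%, in the intragenic peak of Ldb1, and 19 of the 32 had none. Over all peaks, sampled at intervals of 97 bp, the share was 4.92%. Whether reads from repeats contributed to this peak was not tested.

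The genes most like Isl1 in the placing of their peaks were sought among 41 other genes with the same number, by the sum of absolute differences in peaks per distance class. Mir1904 and Xylt1 differed by 2, and Chd7 and Hpcal1 by 4. Mir1904 also had 4 peaks between 100 and 250 kb, Xylt1 had 3. A further 4931429L15Rik stood at 6, a value that 18 genes reached or undercut, so its place rests on alphabetical order.

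Isl2 (chr9:55386479-55393987, plus strand), the closest relative of Isl1 and a gene of motor and sensory neurons, had 3 peaks. The promoter peak was 1009 bp wide at -194 bp. A peak of 635 bp at 5280 bp lay over the 3′ end of the gene, with a CpG ratio of 0.98, the highest of the 32. The peak of 826 bp at 38983 bp lay in an intron of the neighbour Scaper, whose TSS was nearer in GENCODE at 23349 bp, and held 3 copies of AGATAA in its central 300 bp. Both Isl genes had a promoter peak, and 5 of the 8 Isl1 peaks lay farther from their TSS than this outermost peak of Isl2.

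Lhx2 (chr2:38194801-38225253, plus strand), a regulator of forebrain, eye and hair follicle progenitors, had 4 peaks. The peak 452 bp from the downstream start site (chr2:38205778-38208783) measured 3006 bp and was the widest of all 32, and 98.9% of all peaks of the list were narrower. The peak at the upstream start site measured 1276 bp. The others were 893 bp wide over an exon at 17695 bp and 1190 bp wide at 73277 bp. All 4 lay downstream of their TSS. An E-box was present in the centre of 3, beside 38.0% of all peaks. A homeodomain core, CTAATG, was present in 2, beside 8.81% of all peaks with either core.

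Lhx9 (chr1:140721763-140745153, minus strand), a gene of gonad, limb and brain, had a peak of 1417 bp at -879 bp, which covered another annotated start site of the gene 117 bp from its midpoint. Its other peak, at 10942 bp over an exon, was 497 bp wide, and only 1.32% of the list was narrower. Lhx5 (chr5:120881895-120891466, plus strand), a forebrain gene, had 1 peak of 600 bp at -7566 bp and none at its CpG-rich promoter. Lmx1b (chr2:33416485-33496031, minus strand), needed for limb and kidney, had no promoter peak either. Its 2 peaks of 1051 and 1241 bp at 45272 and 47298 bp lay in its own intron and were 880 bp apart. This count became 1 when peaks with gaps of up to 1 kb were joined, and 5 when peaks were given to the nearest GENCODE protein coding TSS. The peak nearest the Lmx1b TSS lay at -25023 bp from it and was assigned to C130021I20Rik.

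The adaptor gene Ldb1 (chr19:46107083-46119704, minus strand) had 2 peaks, both at start sites, 2666 bp wide at -80 bp and 1581 bp wide at 243 bp. The midpoint of the former lay in an intron of Pprc1, which overlaps it. Ldb2 (chr5:44863372-45190946, minus strand) had a peak of 908 bp at 96 bp and one of 968 bp at 198150 bp (chr5:44992352-44993319), deep in its own intron. This intronic peak held the homeodomain core TAATTA next to its midpoint, printed above. The surroundings of the 2 adaptor genes differed, since the nearest peaks of other genes were 42.1 kb apart around Ldb1 and 1006 kb apart around Ldb2.

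Lmo1 (chr7:116282086-116313822, minus strand), a regulator first known from leukaemia, had 4 peaks and none within 1 kb. They were 608, 879, 734 and 789 bp wide at -80443, -66391, -55631 and 31047 bp, the last in its own intron. The distances of the upstream peaks start from a TSS 4.9 kb upstream of the one in GENCODE, so that distances from the latter are longer. The outermost of them, at -80443 bp, held the other TAATTA found in the central 300 bp of the 32 peaks. Lmo4 (chr3:143851494-143868184, minus strand), which is widely expressed, had promoter peaks of 1713 and 1559 bp at -327 and 87 bp of separate start sites, and upstream peaks of 884 and 1409 bp at -176018 and -127671 bp. The latter was wider than 92.8% of the peaks at that distance. Lmo1 and Lmo4 thus had the same number of peaks and differed in having a peak at the promoter.

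**Figure D2:**
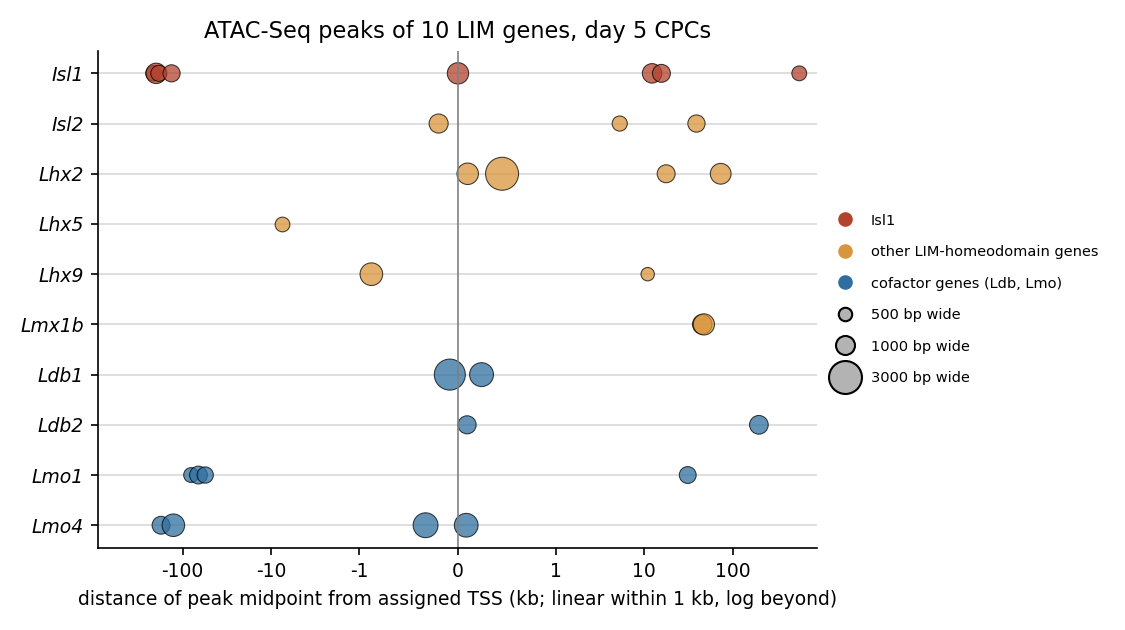
Each circle is a peak of 1 of the 10 genes, placed by the distance of its midpoint from the assigned TSS (kb, linear within 1 kb and log beyond), with the area giving its width in bp. Upstream is negative. Lhx5, Lmx1b and Lmo1 have no circle within 1 kb, and Isl1 has 4 circles upstream by more than 100 kb.

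A peak within 1 kb of the TSS was present at 7 of the 10 genes, beside 74.6% of all genes with a peak. Lhx2, Ldb1 and Lmo4 had 2 such peaks each, 3 of 10 genes beside 1.92%, each at separate start sites. They have 4, 5 and 3 annotated start sites, whereas the 1.92% covers genes with any number of them. Promoters were taken from 500 bp before to 500 bp after the outermost 5′ TSS of a protein coding transcript. Of the 10 promoters, 8 were CpG-rich, meaning a GC content of at least 50% and a CpG ratio of at least 0.6. Of these, 5 overlapped a peak, those of Isl1, Isl2, Lhx2, Ldb1 and Lmo4, beside 89.4% of the 9930 CpG-rich promoters of all genes. Those of Lhx5, Lmx1b and Lmo1 did not. Lhx9 and Ldb2 had CpG-poor promoters by this definition and had a peak there, as 24.9% of CpG-poor promoters did.

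Peaks beyond 10 kb made up 20 of the 32, or 62.5% (Wilson 45.3 to 77.1%), beside 41.4% of all peaks. Peaks of 1 gene are not independent, and 7 of the 20 belonged to Isl1. Without Isl1 the share was 54.2% (35.1 to 72.1%), an interval that includes the value of the whole list. Peaks beyond 100 kb made up 25% (13.3 to 42.1%) beside 8.20%, and 12.5% without Isl1. By the midpoint, 14 peaks lay in the body of their own gene, 2 in that of another gene and 16 (50%) outside coding genes, beside 41.2% of all peaks. Of the distal peaks, 9 lay upstream and 11 downstream.

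The median width of the 32 peaks was 938 bp (interval of the median 814 to 1241), beside 1081 bp for all. Within 1 kb it was 1488 bp (n = 10) beside 1326 bp, and beyond 10 kb 881.5 bp (n = 20) beside 880 bp. Peaks near the TSS were thus wider than distal ones, as in the whole list, and beyond 10 kb the medians were nearly equal. The widest peaks belonged to Lhx2 and Ldb1, with 4 and 5 annotated start sites. Lhx9 has 5, and its peaks measured 1417 and 497 bp. A relation between start sites and width was not tested.

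**Figure D3:**
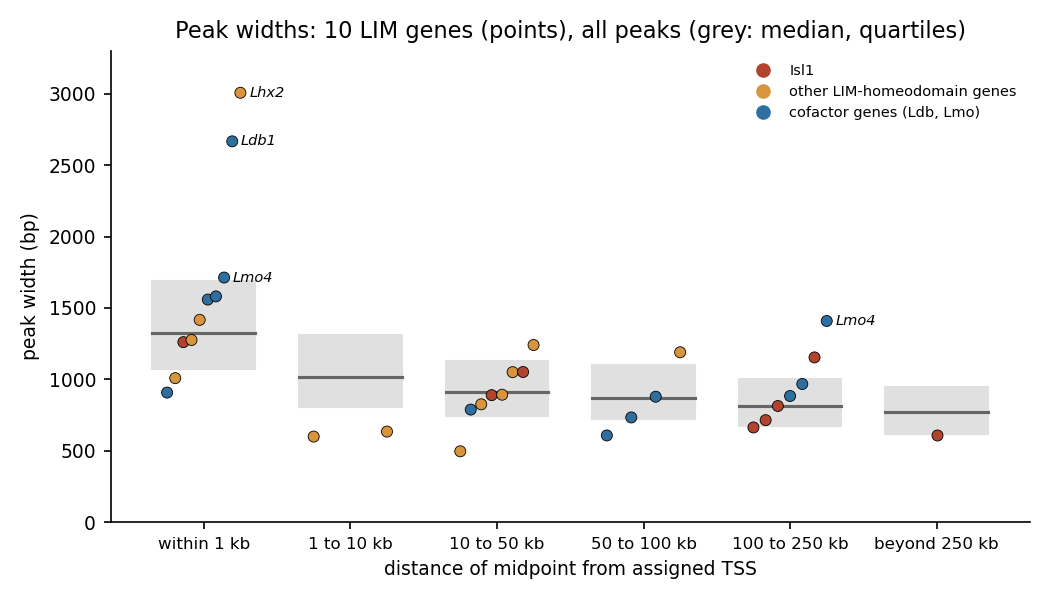
Points give the width in bp of each of the 32 peaks by distance class, and grey boxes and lines give the quartiles and median of all peaks in that class. The Lhx2 and Ldb1 peaks at 3006 and 2666 bp lie above the upper quartile, and the Lhx9 peak of 497 bp lies below the lower quartile.

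Base composition followed the same division. Peaks within 1 kb had a median GC content of 60.1% and a CpG ratio of 0.62, and those beyond 10 kb 50.4% and 0.21, against 58.6% and 0.68, and 50.9% and 0.23, in the whole list. Exceptions were the promoter peak of Ldb2, with a CpG ratio of 0.29, and the exonic peak of Lhx9, which combined 38.4% GC with a ratio of 0.87.

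**Figure D4:**
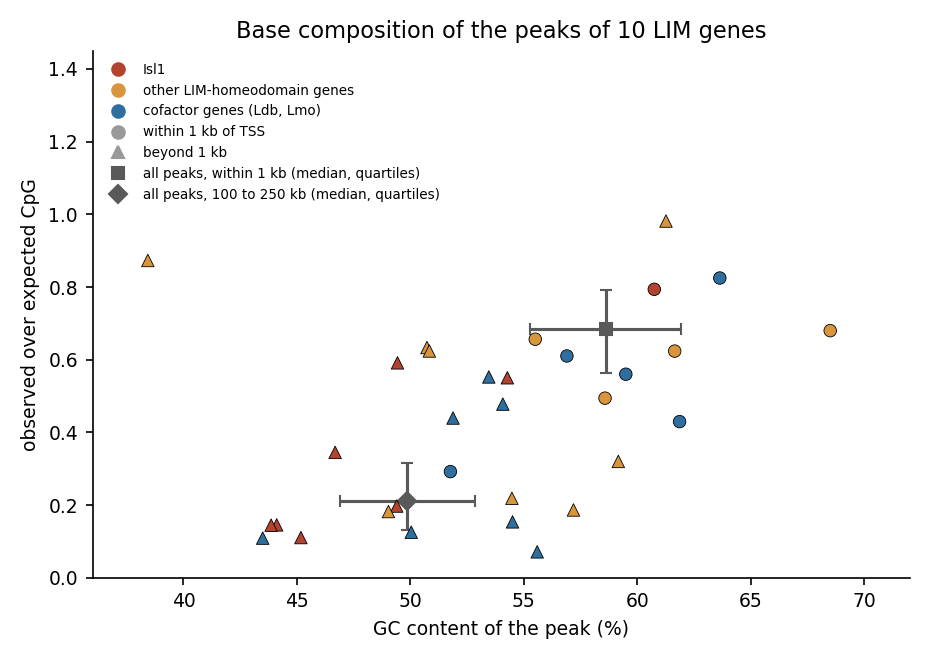
GC content (%) of each of the 32 peaks against its observed over expected CpG, with circles within 1 kb of the TSS and triangles beyond, and grey marks for medians and quartiles of all peaks in 2 distance classes. Circles lie to the upper right of most triangles, and the 3′ peak of Isl2 stands highest at 0.98.

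Motifs were counted in the central 300 bp of each peak, on both strands. A homeodomain core (TAATTA or CTAATG) was present in 5 of 32 peaks, 15.6% (6.86 to 31.8%), beside 8.81% of all peaks. A GATA motif was present in 7, 21.9% (11.0 to 38.8%) beside 14.8%, and an E-box in 13, 40.6% (25.5 to 57.7%) beside 38.0%. Each interval included the share of the whole list. In the whole list these shares were higher far from the TSS. Beyond 10 kb, in the same order of motifs, the shares were 15%, 30% and 45% (n = 20), beside 14.0%, 24.3% and 41.3% of all peaks. Within 1 kb they were 20%, 10% and 40% (n = 10), beside 3.61%, 5.22% and 34.2%. The 19 peaks of the 12 other family genes described below had shares of 21.1%, 26.3% and 47.4%. None of the 8 Isl1 peaks held a homeodomain core in the central 300 bp, 3 held a GATA motif and 5 an E-box. Cores were present in peaks of Lhx2 (2 of 4), Lhx9, Ldb2 and Lmo1 (1 each). The 6 peaks of Ldb1 and Lmo4 held none of the motifs. Absence says only that these letters are not in the window.

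A pair of arrangements was noticed in the printed sequences and is described without a test. The distal windows of Ldb2 (198150 bp) and Lmo1 (-55631 bp) have an E-box followed on the same strand by AGATAA, with 10 bp between them, an order known from sites of complexes that hold an Ldb and an Lmo protein in blood cells. Of all 26232 peaks, 10 had it, but the spacing was read from these windows, and other spacings from 5 to 15 bp occurred in 2 to 12 peaks. The promoters of Isl1, Isl2, Lhx5 and Lhx9 each hold 2 CCAAT boxes in the 250 bp before the outermost 5′ TSS, and the other 6 genes none. Of all promoters, 10.6% held 2 or more.

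The rest of the family was read as a list of 12 genes, 8 of them CpG-rich at the promoter. They had 19 peaks, a mean of 1.58. A peak was present at 10 of the 12, beside 62.5% of protein coding genes. Of these 10, 6 had one within 1 kb, beside 74.6% of all genes with a peak. Ssbp3, a partner that stabilises Ldb proteins, had the most with 6, and Lmo2, the blood cofactor, had 2, both within 1 kb. Lmo3 had none. Lhx1 had none assigned although a peak covered its promoter, since this peak, at -253 bp from the Lhx1 TSS, was given to Lhx1os. Of the 8 CpG-rich promoters, 5 overlapped a peak, beside 89.4% of all CpG-rich promoters, and those of Lhx6, Ssbp3 and Ssbp4 did not. The Ssbp4 peak (chr8:73132862-73136252) began just outside the 500 bp window around the TSS at 73132213.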

How the data were processed

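ATAC-Seq was measured in 2 samples of day 5 CPCs from independent differentiations. Per the methods of the study, the authors aligned reads to mm9 with Bowtie2, filtered them with samtools, removed duplicates with Picard 1.136, called peaks per replicate with MACS14, left out blacklisted regions and kept regions shared by both replicates by at least 1 bp with bedtools 2.15. A correction for the Tn5 cut site was not described. HOMER annotation to the nearest TSS is described for ChIP-Seq. The deposited file holds positions, signed distances and gene names, in base pairs, with no peak score. The bedtools option named in the methods, -wa, writes the interval of its first input. Widths and midpoints may therefore be those of 1 replicate. A shared list leaves out regions found in 1 replicate.

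From it, 26429 lines gave 26232 distinct intervals, all inside the reference chromosomes. Distances and their classes are the file's own, from a TSS set not given in the sources used here. Gene bodies, promoters and the start sites set against them came from GENCODE vM1. Start sites are those of protein coding transcripts, and that of Isl2 (chr9:55388955) lies inside its annotated gene. RefSeq's table (GRCm38.p6) gave names only, matched by accession or symbol. Distance classes, CpG, motifs and Wilson intervals (95%) were computed in Python 3.11.15 with pandas 2.3.3, scipy 1.17.1 and pysam 0.24.0, and checked on simulated data. No test was made. The members and lists were chosen with earlier results of these data known. All members were named with every peak, with the 12 other family genes as a list and up to 5 genes most like Isl1. CCAAT boxes, the spacing of E-box and GATA motifs and the repeat words were added after the sequences had been seen, and the windows of 5 printed sequences were moved within their peaks to include motifs.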

Additional observations from a re-analysis of the deposited data

How the results depend on the processing

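The 6 results over the 10 genes were recomputed under other settings, 36 combinations in all, and 31 stayed within 1.5 times the value or within its interval. Some of the 31 were fixed in advance. None of the 32 intervals was on more than 1 line, so counting every line could change nothing. Joining close peaks could not change which genes had a peak. The limit of 100 kb could not change which had one within 1 kb. The 5 that moved all came from keeping only peaks wider than the median of the list. This setting left 12 peaks of 6 genes, 1.2 peaks per gene, a median width of 1413 bp and 33.3% of peaks beyond 10 kb. Because it selects on width, the rise of the median width was fixed in advance, and counts could not rise. Peaks beyond 10 kb are also narrower in the whole list, as given above. Of 60 counts for single genes 13 moved, and here too counting every line could move none. Isl1 went from 8 to 2 with wide peaks only and to 3 within 100 kb of the TSS, where Ldb2 went from 2 to 1 and Lmo4 from 4 to 2, and Lmx1b from 2 to 5 when peaks were given to the nearest GENCODE coding TSS. Joining peaks over gaps of up to 1 kb made the Lmx1b pair 1 region. No paired analysis was possible because the file gives 1 list for both replicates, and neither replicate could be left out for the same reason. Depth was unknown, so a missing peak at Lhx5, Lmx1b or Lmo1 promoters says only that none was on the shared list.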
